A study of Mus musculus with 100 samples.

Results

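The interleukin 6 (IL-6) family and its gp130 receptors were followed in knee joints by 10 genes: the ligands Il6, Il11, Lif and Osm, the shared receptor chain gp130 (gene Il6st), the ligand-binding chains Il6ra, Il11ra1, Lifr and Osmr, and Socs3, the feedback inhibitor of the pathway. The genes were taken by name, and all 10 were found among the 17310 genes of the count table. Right knees of MRL/MpJ, C57BL/6 (by the study's methods the substrain C57BL/6J) and STR/ort mice at an age of 10 weeks received a compressive load of 10 to 12 N, which ruptures the anterior cruciate ligament, and the opposite knee was the uninjured contralateral joint. By the labels MRL/MpJ is not susceptible to post-traumatic osteoarthritis (PTOA), C57BL/6 moderately and STR/ort highly. The 100 libraries form 21 groups. Uninjured mice gave 4 libraries per strain at 0-day. Injured and uninjured joints gave 5 libraries each per strain at the 3 later times (1-day, 1-week, 2-weeks), apart from uninjured joints of MRL/MpJ and STR/ort at 1-week with 4. Mice were injured under isoflurane and received buprenorphine afterwards, the 3 lines are inbred strains with no transgene named, and the labels give no sex. The joints were taken whole with traces of soft tissue, so each library is a mixture of cartilage, bone, marrow, synovium and muscle. The labels name the animal of each joint at 2-weeks only, so before 2-weeks the p-values measure the spread between libraries, which may be technical in part. At 2-weeks, too, the main tests did not pair the joints of an animal.

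IL-6 family cytokines act by bringing gp130 together with a second receptor chain, which sets off JAK kinases and the transcription factor STAT3. IL-6 and IL-11 first bind an alpha chain (IL-6R or IL-11R alpha) and then pair gp130 with itself, whereas LIF and oncostatin M pair gp130 with LIFR or OSMR. STAT3 raises the gene of SOCS3, which in turn blocks gp130 and shuts the signal down. In joints the family is known for acute inflammation of the synovium, for matrix breakdown in cartilage and for the balance of bone-forming and bone-resorbing cells.

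Total counts per library ranged from 6182016 to 20986027. By the labels, experimental batch 1 holds all libraries up to 1-week and batch 2 those of 2-weeks, so for 2-weeks against earlier times batch and time cannot be told apart, and no test crosses them. The labelled tissue was checked against marker lists: 5 tested cartilage genes together reached 985 to 6528 CPM (counts scaled to a common library size) per library, 6 bone genes 458 to 3928 CPM and 7 skeletal muscle genes 13509 to 105820.0 CPM, and no gene of these lists was at 0 throughout a group. Within STR/ort, immediate early genes (7 genes such as Fos and Egr1) stood apart at 0-day, where they summed to 1172 to 2124 CPM against 157 to 221 CPM in the other strains. They were also high in replicate 5 of STR/ort at 1-day, with 759 CPM in the injured and 834 CPM in the uninjured joint against 167 to 387 CPM in the other STR/ort joints of that day. Without this pair 35 of 38 calls of the fits that held it remained, and the 3 lost are named below, while Socs3 of C57BL/6 minus MRL/MpJ in uninjured joints at 1-day was newly called (0.61, adjusted p = 0.021). All 4 STR/ort libraries of 0-day stood apart, so no comparison with STR/ort at 0-day is free of such libraries. Replicates 1 and 2 were the highest of them in immediate early genes, and they also had the most Socs3 and Il6 at 0-day. The loss of calls of these genes without them thus goes in part with that choice. Without replicates 1 and 2, 4 of 9 calls of the fits that held them remained, and the 5 lost are named below. At 0-day Osmr was then newly called higher than in MRL/MpJ in STR/ort (0.60, adjusted p = 0.0042) and in C57BL/6 (0.58, 0.00104).

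Per kilobase of exon, the receptor chains and Socs3 were above the 4 ligands by their medians over groups. Il6st had a median group mean of 22.0 CPM per kilobase and Lifr 13.2, followed by Il11ra1 with 8.67, Socs3 with 5.54, Osmr with 5.06, Il6ra with 4.86, Osm with 2.21, Lif with 0.620, Il11 with 0.398 and Il6 with 0.334. In injured STR/ort joints of 1-day, however, the group means of Il11 (8.25) and Il6 (5.81) were above that of Il6ra (4.86). Group means of Il11 ran from 0.108 to 8.25 and those of Il6 from 0.164 to 5.81 CPM per kilobase, whereas Il6st stayed between 15.3 and 31.2 and Il6ra between 3.72 and 6.68. Neighbours in this order such as Socs3, Osmr and Il6ra overlap in their ranges over groups and are not told apart by them. The counts behind these levels are small for Il6, with a median of 9 counts in injured and 3 counts in uninjured or 0-day libraries, and for Il11, with 26 and 5 counts. Il6 had 0 counts in 6 libraries, 1 of an injured and 5 of uninjured or 0-day joints, and a count of 0 allows up to 3 counts, or 0.267 to 0.517 CPM in these libraries (counting error only).

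The 5 genes that were called higher in injured joints of at least 1 strain at 1-day (Il6, Il11, Lif, Osmr and Socs3) are shown by the 250 bases before a transcription start of the gene in RefSeq (GRCm38.p6), because they moved together in the injury comparison described below. For Il6 and Lif this start is the upstream end of the annotated gene span given below, whereas for Il11, Osmr and Socs3 it lies inside the span, which reaches further upstream. Capitals mark matches, on either strand, to 3 motifs: TTCNNNGAA, which STAT factors recognise, TGAGTCA, which AP-1 (Fos and Jun) recognises, and TTNNGCAA, which C/EBP factors recognise.
Il6 (chr5:30012864-30013113, plus strand): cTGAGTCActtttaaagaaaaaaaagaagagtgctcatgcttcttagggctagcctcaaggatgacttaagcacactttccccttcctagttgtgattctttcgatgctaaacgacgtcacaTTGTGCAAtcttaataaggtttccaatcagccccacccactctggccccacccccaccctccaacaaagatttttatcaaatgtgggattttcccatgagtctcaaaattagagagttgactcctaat
Il11, second of 2 starts (chr7:4778142-4778391, minus strand): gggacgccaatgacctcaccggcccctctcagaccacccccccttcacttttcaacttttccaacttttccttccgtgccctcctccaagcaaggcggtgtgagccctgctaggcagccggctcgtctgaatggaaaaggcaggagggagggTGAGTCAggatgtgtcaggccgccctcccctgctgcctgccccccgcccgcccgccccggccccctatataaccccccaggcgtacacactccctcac
Lif (chr11:4257318-4257567, plus strand): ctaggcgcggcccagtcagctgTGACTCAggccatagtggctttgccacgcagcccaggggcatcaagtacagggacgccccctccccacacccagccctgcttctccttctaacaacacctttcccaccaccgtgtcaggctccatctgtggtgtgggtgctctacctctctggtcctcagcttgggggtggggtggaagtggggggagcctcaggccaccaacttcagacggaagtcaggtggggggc
Osmr (chr15:6874314-6874563, minus strand): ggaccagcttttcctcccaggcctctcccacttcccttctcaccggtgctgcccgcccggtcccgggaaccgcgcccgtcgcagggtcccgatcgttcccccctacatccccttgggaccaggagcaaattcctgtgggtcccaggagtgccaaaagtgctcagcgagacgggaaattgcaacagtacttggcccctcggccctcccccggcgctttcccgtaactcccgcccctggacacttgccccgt
Socs3 (chr11:117969367-117969616, minus strand): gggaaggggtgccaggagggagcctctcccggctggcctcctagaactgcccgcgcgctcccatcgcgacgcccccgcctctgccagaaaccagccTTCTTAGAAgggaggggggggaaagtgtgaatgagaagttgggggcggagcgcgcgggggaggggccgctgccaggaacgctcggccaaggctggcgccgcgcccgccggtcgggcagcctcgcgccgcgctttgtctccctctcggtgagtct
Il6 held an AP-1 match starting 249 bases and a C/EBP match starting 128 bases before the start. The AP-1 letters stood 98 bases before the second start of Il11 and 228 bases before that of Lif, and the STAT letters 154 bases before that of Socs3. Osmr had none of the 3 in this window, nor did the first start of Il11 or the windows of Il6st, Il6ra, Il11ra1 and Lifr. Of all 32851 promoter windows of the same length, 7.02% held TTCNNNGAA, 4.46% TGAGTCA and 9.56% TTNNGCAA, so each motif is also found at many other genes. A match is a string of letters and not a measured binding site.

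In GRCm38.p6, Osm (chr11:4236785-4241026) and Lif (chr11:4257568-4272514) are neighbours 16.5 kb apart, and Osmr (chr15:6813568-6874968) and Lifr (chr15:7090610-7197489) are 215.6 kb apart. Il6 is at chr5:30013114-30019975, Il11 at chr7:4772373-4782907, Il6st at chr13:112464070-112506860, Il6ra at chr3:89869324-89913196, Il11ra1 at chr4:41760443-41769473 and Socs3 at chr11:117966079-117970336. Il6, Il11, Il6ra and Il11ra1 each overlap 1 other annotated gene (A230098N10Rik, Tmem190, Gm46811 and Ccl27a), and the strand setting of the counting is not given in the sources used here, so reads of the overlaps cannot be told apart. Il11ra1 also has the near-identical copy Il11ra2, 885.8 kb away and not analysed here, so its level is uncertain.

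A gene was called in a comparison when its adjusted p in edgeR's quasi-likelihood test, over all 17310 genes, was below 0.05 and its fold change above 1.5. Over 48 comparisons the 10 genes gave 480 values, of which 101 were called. At 1-day after injury, 5 of 10 were called higher in injured than in uninjured joints of MRL/MpJ, where 1.53% of all genes were. The count was 4 of 10 in C57BL/6 beside 4.26% of all genes, and 5 of 10 in STR/ort beside 1.61%. At 1-week it was 3 in MRL/MpJ (all genes 2.93%), 3 in C57BL/6 (4.75%) and 4 in STR/ort (5.67%), with 1 gene lower in STR/ort (3.54% of all genes). At 2-weeks it was 0 in MRL/MpJ, 2 in C57BL/6 (2.88%) and 4 in STR/ort (4.34%). The median log2 fold change of the 10 genes was between 0.09 and 0.65 in these 9 comparisons, against a median over all genes between -0.03 and 0.01. In MRL/MpJ at 2-weeks (all genes in either direction 1.16%) edgeR called 0 of the 10, 3 of them had an unadjusted p below 0.05 and DESeq2 called 0 of the 9 it tested. Because whole joints were sequenced in bulk, fewer cells of a type and less RNA per cell cannot be told apart.

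Markers of other cells moved with injury in part. Of 9 marker lists in 3 strains at 3 times, 81 cases, the summed level did not overlap between injured and uninjured joints in 12, and 6 of these were synovial fibroblasts. Synovial fibroblast markers at 1-day summed to 2645 to 4468 CPM in injured against 1667 to 2573 in uninjured MRL/MpJ joints, to 3325 to 4636 against 2063 to 2716 in C57BL/6 and to 5883 to 10362 against 7024 to 9816 in STR/ort, so that the sums separated the joints in MRL/MpJ and C57BL/6 and overlapped in STR/ort. Of the 7 markers 2, 3 and 1 were called higher and 1, 2 and 2 lower in these strains. At 1-week 4, 4 and 2 were higher and 0, 1 and 2 lower, and at 2-weeks 4, 4 and 3 were higher. Skeletal muscle markers of STR/ort were lower in injured joints for 4 of 7 at 1-day (16341 to 41248 against 30122 to 52104 CPM) and for 6 of 7 at 1-week (13509 to 30015 against 27509 to 52986 CPM). In STR/ort at 2-weeks cartilage markers were higher in injured joints (3705 to 5435 against 2135 to 3196 CPM, 3 of 5 called higher). Cartilage markers of C57BL/6 overlapped at 1-week and 2-weeks with 2 of 5 called higher each time. Also with overlapping sums, at 1-week 3 of 6 bone markers were lower in STR/ort and 1 in C57BL/6, and 2 of 7 skeletal muscle markers were lower in C57BL/6. Neutrophil markers were lower without overlap in injured C57BL/6 joints at 1-day (10281 to 13167 against 14769.8 to 18400.3 CPM) and 2-weeks (11713 to 14755 against 15411 to 18697 CPM), with 0 of 9 called, and in STR/ort at 1-week. The other 2 cases were monocyte and macrophage markers of C57BL/6 at 2-weeks and heat shock genes of MRL/MpJ at 1-week, both lower in injured joints with none called. No marker was at 0 throughout a group, and the part of these cells in the injury results below was not tested.

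**Figure D1:**
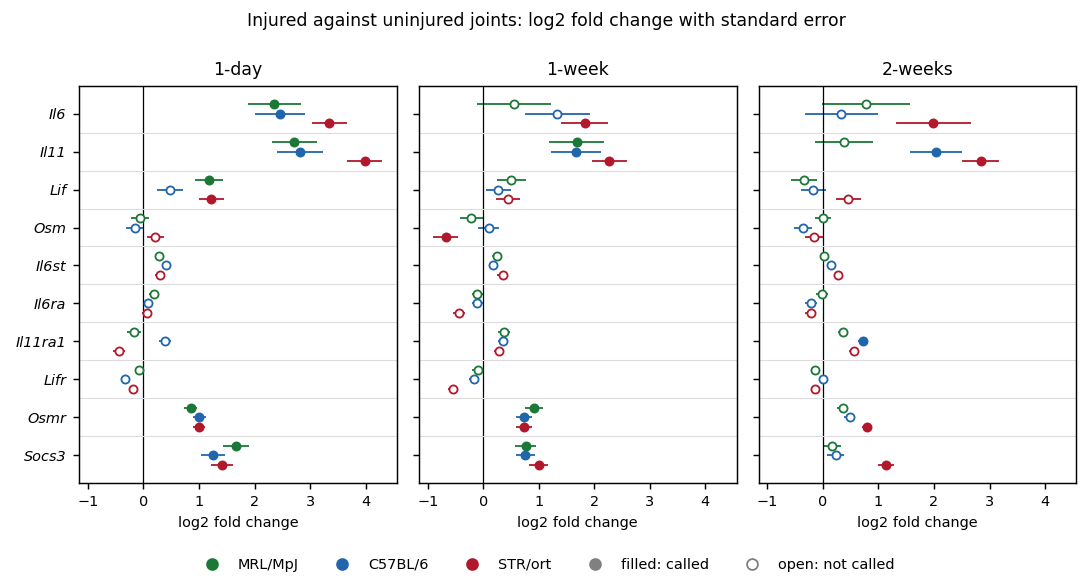
Log2 fold change of injured against uninjured joints (x axis, with the standard error as a bar) for the 10 genes (y axis) in 3 strains (colours) at 3 times (panels: 1-day, 1-week, 2-weeks). Filled points were called. Il11 and Il6 lie farthest to the right at 1-day, and Il11, Osmr and Socs3 of STR/ort are still filled at 2-weeks.

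Il11, whose product binds IL-11R alpha and is made by stromal cells, was the member with the largest fold change after injury in all 3 strains at 1-day. Uninjured STR/ort joints had 0.980, 1.60, 1.03, 1.10 and 0.494 CPM of Il11 and injured ones 17.1, 22.1, 13.2, 18.2 and 12.4 CPM. In MRL/MpJ the uninjured joints had 0.860, 0.975, 0.425, 0.616 and 0.327 and the injured joints 3.55, 6.54, 2.47, 5.37 and 2.47 CPM, and in C57BL/6 0.337, 0.368, 0.361, 0.810 and 0.509 and 4.42, 1.61, 1.58, 6.44 and 3.98 CPM. Injured and uninjured libraries did not overlap in any strain, and every injured STR/ort library was above every injured library of the other strains. The log2 fold change (± standard error) was 2.72 ± 0.41 (adjusted p = 5.18e-05) in MRL/MpJ, 2.82 ± 0.41 (adjusted p = 6.63e-06) in C57BL/6 and 3.98 ± 0.32 (adjusted p = 7.71e-10) in STR/ort. These calls held in every alternative and without any 1 library, and without the replicate 5 pair of STR/ort the last was 3.89.

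One week after injury Il11 was still higher in injured joints of each strain. Injured STR/ort joints had 12.9, 7.70, 4.90, 7.22 and 11.8 CPM against 1.26, 2.90, 1.32 and 1.91 CPM in the 4 uninjured ones, again with no overlap. Injured C57BL/6 joints had 1.34, 1.42, 1.08, 1.34 and 2.10 CPM against 0.231, 0.263, 0.894, 0.0810 and 0.786, and injured MRL/MpJ joints 1.27, 1.44, 1.54, 1.65 and 1.85 CPM against 0.339, 1.05, 0.101 and 0.509, also without overlap and all below the injured STR/ort joints. The log2 fold change was 2.27 ± 0.31 (adjusted p = 3.6e-06) in STR/ort, 1.68 ± 0.45 (adjusted p = 0.0119) in C57BL/6 and 1.68 ± 0.49 (adjusted p = 0.0413) in MRL/MpJ. Only the call in STR/ort held without any 1 library. The one in C57BL/6 was lost without injured replicate 5 (adjusted p = 0.0532) or uninjured replicate 4 (0.0506), and the one in MRL/MpJ in 9 of 28 such fits, with adjusted p from 0.0504 to 0.181, while without uninjured replicate 2 its log2 fold change was 2.29. From 1-day to 1-week the level in injured joints fell by 1.38 ± 0.28 on the log2 scale in MRL/MpJ (adjusted p = 0.00122), by 1.35 ± 0.34 in C57BL/6 (0.00704) and by 0.90 ± 0.22 in STR/ort (0.0034). In that comparison 3 of the 10 genes fell in each strain, beside 1.01%, 2.69% and 4.04% of all genes in MRL/MpJ, C57BL/6 and STR/ort, and 2 rose in STR/ort (8.93% of all genes). Without injured replicate 4 of 1-day the fall of Il11 in C57BL/6 was no longer called (adjusted p = 0.0587), nor was it with housekeeping-gene factors as covariates (RUVg, 0.0881 with 1 and 0.141 with 2 factors), which also ended the 1-week injury call of MRL/MpJ (0.0763 and 0.054).

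At 2-weeks Il11 was highest in injured STR/ort joints, and injured joints of the other strains overlapped. The libraries of injured STR/ort joints had 2.41, 2.54, 3.12, 3.42 and 4.15 CPM, those of C57BL/6 0.819, 0.441, 1.04, 1.87 and 0.385 CPM and those of MRL/MpJ 0.427, 0.275, 0.0859, 0.228 and 0.635 CPM, against 0.822, 0.470, 0.109, 0.420 and 0.361 CPM in uninjured STR/ort joints. Every injured STR/ort library was above all others of that time. Injured and uninjured joints differed by 2.84 ± 0.33 (adjusted p = 1.52e-07) in STR/ort and 2.04 ± 0.47 (adjusted p = 0.00424) in C57BL/6, whereas in MRL/MpJ the value was 0.38 ± 0.53 (adjusted p = 1). Whether these injury changes differ between strains was tested as an interaction, and Il11 was not called in any of the 9 interaction tests, the closest being STR/ort minus MRL/MpJ at 2-weeks with 2.46 ± 0.69 (adjusted p = 0.0961).

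Between strains, injured STR/ort joints had more Il11 than both others at all 3 times. At 1-day 5 of the 10 genes passed with more in STR/ort than in MRL/MpJ (10.2% of all genes), and 3 were higher (4.89%) and 1 lower (7.48%) than in C57BL/6. At 1-week 7 were higher (15%) and 1 lower (14.5%) against MRL/MpJ, and 4 higher (13.3%) and 1 lower (11.8%) against C57BL/6. At 2-weeks 4 were higher against MRL/MpJ (11%) and 3 against C57BL/6 (5.4%). These comparisons share the STR/ort libraries. For Il11 the log2 fold change against MRL/MpJ was 2.01 ± 0.26 (adjusted p = 2.28e-07) at 1-day, 2.48 ± 0.29 (adjusted p = 2.87e-08) at 1-week and 3.18 ± 0.33 (adjusted p = 3.3e-09) at 2-weeks. Against C57BL/6 it was 2.11 ± 0.27 (adjusted p = 3.38e-07), 2.56 ± 0.29 (adjusted p = 2.39e-08) and 1.72 ± 0.28 (adjusted p = 2.22e-05). In injured joints at 2-weeks Il11 was also higher in C57BL/6 than in MRL/MpJ (1.46 ± 0.41, adjusted p = 0.00631), a call lost without injured C57BL/6 replicate 4 (adjusted p = 0.0727) and in a fit of only the groups compared (0.0587). With RUVg the 1-week difference from MRL/MpJ was no longer called (1.79 with adjusted p = 0.0718 for 1 factor, 0.0572 for 2 factors).

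The makeup of the joints moved with these strain differences. Synovial fibroblast markers summed to 5883 to 10362 CPM in injured STR/ort joints at 1-day against 2645 to 4468 in MRL/MpJ and 3325 to 4636 in C57BL/6, with 4 of the 7 markers called higher and 1 lower than in MRL/MpJ, and 1 higher than in C57BL/6. At 1-week the sums were 7705 to 11452, 2886 to 3471 and 2882 to 3258 CPM (6 of 7 higher and 1 lower than in MRL/MpJ, 4 higher than in C57BL/6), and at 2-weeks 2453 to 3192, 1069 to 1789 and 1305 to 1703 CPM (4 higher than in MRL/MpJ, 2 higher and 1 lower than in C57BL/6). STR/ort thus had the most of these markers in injured joints at every time. Skeletal muscle markers went the other way, with 16341 to 41248 CPM in STR/ort at 1-day against 42571 to 76938 in MRL/MpJ and 32544 to 50364 in C57BL/6 (7 and 6 of 7 lower), and with 13509 to 30015 against 43028 to 71899 and 27459.9 to 53682 CPM at 1-week (7 of 7 lower in both). At 2-weeks the muscle sums overlapped between all strains. Cartilage markers of injured STR/ort joints were above those of MRL/MpJ at each time, with 2909.6 to 4659 against 1246 to 2272 CPM at 1-day, 3309 to 6528 against 1178 to 2828 at 1-week and 3705 to 5435 against 1222 to 2239 at 2-weeks (5 of 5 called higher each time), and overlapped those of C57BL/6, above which 5 of 5 were called at 1-week. Bone markers were highest in injured STR/ort joints at 1-day (2634 to 3429 CPM against 1466 to 1882 in MRL/MpJ and 1414 to 2380.1 in C57BL/6) and 1-week, and T cell markers lowest at all times (21.8 to 24.1 against 47.3 to 71.2 and 24.7 to 33.0 CPM at 1-day). Of the 7 immediate early genes, 4 were called higher in injured STR/ort joints than in those of MRL/MpJ at 1-day and 3 higher than in C57BL/6 (167 to 759 against 154 to 203 and 169.7 to 223 CPM). No marker of these lists was at 0 throughout a group. The part of these cell types in the strain differences of Il11 and of the other members below was not tested.

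**Figure D2:**
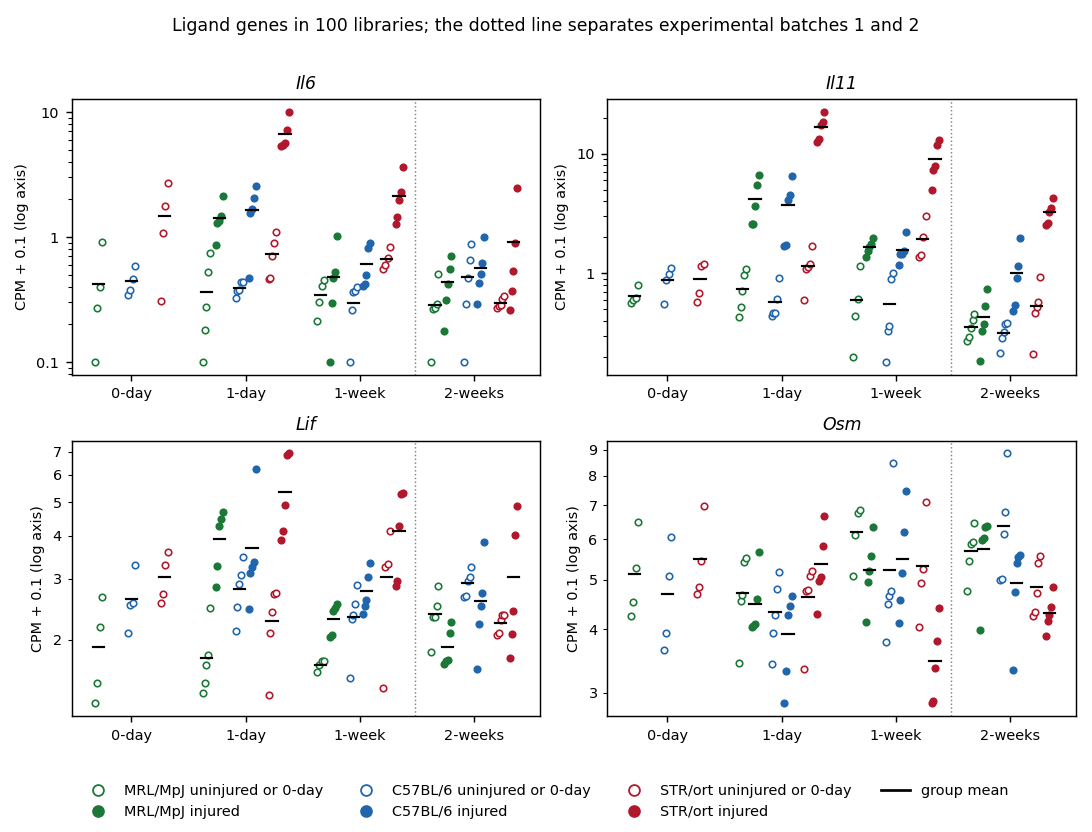
Level of the 4 ligand genes (y axis, CPM + 0.1 on a log axis) in each of the 100 libraries by time (x axis), with open points for uninjured or 0-day joints, filled points for injured joints, colours for strains, points of a group sorted by value, and a black bar for the group mean. Il6 and Il11 of injured STR/ort joints stand above the other groups at 1-day and 1-week, and Osm shows no such gap.

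Il6, the founding ligand and an acute-phase cytokine, changed in the same direction as Il11 at 1-day. At 1-day injured STR/ort joints had 5.55, 7.05, 5.38, 5.26 and 9.92 CPM against 0.603, 0.798, 0.374, 0.365 and 0.989 in uninjured ones. Injured MRL/MpJ joints had 1.18, 2.03, 0.759, 1.25 and 1.37 CPM against 0.645, 0, 0.425, 0.176 and 0.0819, and injured C57BL/6 joints 2.44, 0.371, 1.58, 1.95 and 1.45 CPM against 0.337, 0.276, 0.271, 0.225 and 0.340. The groups did not overlap within any strain, although C57BL/6 injured replicate 2 was just above its uninjured joints. Il6 thus changed by 2.36 ± 0.48 (adjusted p = 0.00245) on the log2 scale in MRL/MpJ, 2.46 ± 0.44 (adjusted p = 0.000147) in C57BL/6 and 3.35 ± 0.32 (adjusted p = 7.1e-09) in STR/ort. The STR/ort call remained without both replicate 5 libraries (3.39, adjusted p = 5.36e-08).

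Injured STR/ort joints had more Il6 than injured joints of MRL/MpJ at 1-day (2.31 ± 0.28, adjusted p = 8.88e-08) and than those of C57BL/6 (2.04 ± 0.28, adjusted p = 1.51e-06), with no overlap of libraries. Without the replicate 5 pair of STR/ort these were 2.12 (adjusted p = 4.07e-07) and 1.85 (6.88e-06). The interaction of strain and injury was not called, with 0.99 ± 0.71 (adjusted p = 0.938) for STR/ort minus MRL/MpJ and 0.89 ± 0.64 (adjusted p = 0.51) for STR/ort minus C57BL/6. At 1-week injury was followed by more Il6 in STR/ort (1.83 ± 0.43, adjusted p = 0.0023), where injured joints had 2.21, 1.18, 1.34, 3.56 and 1.89 CPM against 0.503, 0.725, 0.575 and 0.450. In the other strains the values at 1-week were 0.55 ± 0.66 (adjusted p = 0.807) in MRL/MpJ and 1.34 ± 0.58 (adjusted p = 0.154) in C57BL/6, where groups overlapped in MRL/MpJ and did not in C57BL/6. From 1-day to 1-week Il6 in injured joints fell by 1.86 ± 0.50 in MRL/MpJ (adjusted p = 0.0159), by 1.60 ± 0.35 in C57BL/6 (0.00271) and by 1.67 ± 0.31 in STR/ort (0.000213). In MRL/MpJ that call was lost without injured replicate 2 of 1-day (adjusted p = 0.0597) or injured replicate 1 of 1-week (0.0508). Injured joints of 1-week had more Il6 in STR/ort than in MRL/MpJ (2.47 ± 0.42, adjusted p = 1.22e-05) and in C57BL/6 (1.95 ± 0.39, adjusted p = 0.000109), and neither was called with 1 RUVg factor (adjusted p = 0.0817 and 0.112).

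At 2-weeks the call of Il6 was near the threshold and 1 library stood out. Injured STR/ort joints had 0.803, 0.439, 0.160, 0.270 and 2.38 CPM and uninjured ones 0.235, 0.188, 0.218, 0.168 and 0.180 CPM, so that replicate 5 stood alone, while of the other injured joints 1 lay below and 3 above the uninjured range. The log2 fold change of 1.98 ± 0.68 (adjusted p = 0.0474) dropped to 1.04 without it (adjusted p = 0.35), and 19 of 30 fits without 1 library lost the call, as did a fit of only the groups compared (0.109). In uninjured joints at 1-day Il6 was 1.32 ± 0.55 (adjusted p = 0.0486) between STR/ort and MRL/MpJ, a call that 21 of 30 such fits lost and that fell to an adjusted p of 0.118 without the replicate 5 pair of STR/ort. It was also lost with RLE factors (0.0513), housekeeping scaling (0.0764), only the groups compared (0.0667) and RUVg (0.0525 with 1 factor).

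Lif, the ligand of LIFR, was higher in injured joints at 1-day in MRL/MpJ and STR/ort. Injured MRL/MpJ joints had 3.16, 4.60, 4.18, 4.39 and 2.74 CPM against 1.40, 1.30, 1.70, 1.58 and 2.37, and injured STR/ort joints 4.01, 6.83, 3.79, 4.82 and 6.76 CPM against 2.64, 1.99, 2.62, 1.28 and 2.31, with no overlap in either. In C57BL/6 injured joints had 3.14, 2.35, 3.02, 6.14 and 3.26 CPM and uninjured ones 3.37, 2.02, 2.80, 2.38 and 2.97, which overlapped. The log2 fold change was 1.19 ± 0.25 (adjusted p = 0.0039) in MRL/MpJ and 1.22 ± 0.23 (adjusted p = 0.0005) in STR/ort, and 0.47 ± 0.23 (adjusted p = 0.172) in C57BL/6. Without the replicate 5 pair the value of STR/ort was 1.14 (adjusted p = 0.00286). The difference of C57BL/6 from the other strains was not called as an interaction (adjusted p = 0.426 and 0.225). At 1-week its 3 injury comparisons lay between 0.27 and 0.51 and at 2-weeks between -0.34 and 0.46, none of them called. In injured MRL/MpJ joints it fell by 0.77 ± 0.18 from 1-day to 1-week (adjusted p = 0.00604). At 1-week injured STR/ort joints had more Lif than those of MRL/MpJ (0.84 ± 0.21, adjusted p = 0.00145) and so at 2-weeks (0.70 ± 0.22, adjusted p = 0.0113), the first lost with 1 RUVg factor (adjusted p = 0.457) and the second without injured STR/ort replicate 5 (0.0877) or, by its fold of under 1.5, replicate 1 (0.57 on the log2 scale). In uninjured joints Lif was 0.90 ± 0.27 (adjusted p = 0.00722) above MRL/MpJ in STR/ort at 1-week, lost with 1 RUVg factor (0.505), and 0.69 ± 0.26 (adjusted p = 0.0417) above MRL/MpJ in C57BL/6 at 1-day, lost in 7 of 30 fits without 1 library (adjusted p from 0.0646 to 0.0948) and with 1 RUVg factor (0.189). The 2-weeks difference in injured joints was also lost with only the groups compared (0.0732).

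Osm, which encodes oncostatin M and is made mainly by myeloid cells, was the one ligand not called higher after injury in any strain. Its 100 libraries lay between 2.76 and 8.75 CPM. The 9 injury comparisons gave log2 fold changes between -0.68 and 0.21, and the lowest of them was called. At 1-week injured STR/ort joints had 2.79, 4.31, 2.76, 3.25 and 3.68 CPM and uninjured ones 5.15, 4.84, 6.99 and 3.94 CPM, with 1 injured library inside the uninjured range. This change was -0.68 ± 0.22 (adjusted p = 0.0295), and it was not called without injured replicate 1 (adjusted p = 0.0751), injured replicate 3 (0.0658) or uninjured replicate 3 (0.209), nor with only the groups compared (0.0583). Neutrophil markers moved the same way, with sums of 8593 to 12165 CPM in injured against 14053 to 18849 CPM in uninjured STR/ort joints and 4 of 9 markers called lower (none at 0), and their part in the result was not tested.

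Against the other strains Osm in injured STR/ort joints at 1-week was -0.64 ± 0.21 (adjusted p = 0.0119) relative to MRL/MpJ and -0.71 ± 0.21 (adjusted p = 0.00515) relative to C57BL/6. The first was lost by its fold of under 1.5 without injured MRL/MpJ replicate 4 (-0.55), injured STR/ort replicate 1 (-0.58) or replicate 3 (-0.57), and the second without injured C57BL/6 replicate 5 (-0.54). At 1-day injured STR/ort joints had 4.87, 4.19, 5.73, 4.97 and 6.58 CPM, and the fall to 1-week was 0.65 ± 0.18 on the log2 scale (adjusted p = 0.0074). Without injured replicate 5 of 1-day it was -0.57, without the replicate 5 pair -0.55 and with housekeeping scaling -0.57, each under the fold threshold. Neutrophil markers moved with these differences too, since injured STR/ort joints of 1-week (8593 to 12165 CPM) lay below injured joints of MRL/MpJ (14264 to 18883, 5 of 9 called), of C57BL/6 (13242 to 14806, 1 of 9 called) and of STR/ort at 1-day (13354 to 16168, 0 of 9 called) without overlap, and their part was not tested.

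Osmr, the receptor chain that oncostatin M joins to gp130, rose after injury in all strains. At 1-day injured joints had 31.1, 39.1, 33.1, 37.0 and 42.1 CPM in MRL/MpJ, 49.5, 35.3, 41.0, 56.5 and 43.6 CPM in C57BL/6 and 63.3, 56.9, 47.9, 50.4 and 63.7 CPM in STR/ort. Uninjured joints had 17.3, 24.8, 20.3, 21.7 and 18.7 CPM in MRL/MpJ, 24.0, 22.6, 21.02, 20.0 and 25.4 CPM in C57BL/6 and 27.8, 31.1, 25.9, 25.6 and 28.5 CPM in STR/ort. No injured library overlapped the uninjured ones of its strain. In the same order the log2 fold changes were 0.85 ± 0.11 (adjusted p = 8.41e-06), 1.01 ± 0.11 (adjusted p = 7.89e-08) and 1.00 ± 0.11 (adjusted p = 9.34e-08). Without the replicate 5 pair the last was 0.97 (adjusted p = 1.59e-06). At 1-week they were 0.91 ± 0.16 (adjusted p = 0.000218), 0.73 ± 0.14 (adjusted p = 0.000426) and 0.73 ± 0.14 (adjusted p = 0.00032), and all but the last, which was 0.57 and so under the fold threshold without uninjured replicate 3, held without any 1 library. At 2-weeks Osmr was called in STR/ort (0.79 ± 0.09, adjusted p = 1.73e-07). In C57BL/6 the change at 2-weeks was 0.48 ± 0.10 (adjusted p = 0.00118), under the fold threshold, and in MRL/MpJ 0.35 ± 0.10 (adjusted p = 0.0609).

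The level of Osmr in STR/ort was raised in both joints at 1-week. Uninjured STR/ort joints had 28.8, 25.8, 28.6 and 28.6 CPM at 0-day, 27.8, 31.1, 25.9, 25.6 and 28.5 CPM at 1-day and 57.5, 68.5, 35.0 and 53.0 CPM at 1-week, when injured joints had 109.9, 91.7, 100, 69.0 and 73.3 CPM. Every uninjured library of 1-week was above those of 0-day. At 2-weeks uninjured STR/ort joints had 25.2 to 29.2 CPM, where batch and time cannot be told apart. Uninjured joints of 1-week against 0-day gave 0.91 ± 0.16 (adjusted p = 0.000146), which held under every alternative and without any 1 library, and was 0.86 (adjusted p = 0.00416) without 0-day replicates 1 and 2. It was the only gene of the 10 called in that comparison (4.73% of all genes were called higher), and the corresponding values were -0.20 ± 0.12 (adjusted p = 0.751) in MRL/MpJ and -0.35 ± 0.14 (adjusted p = 0.0872) in C57BL/6. Whether the strains differ in this change was not tested. Synovial fibroblast markers in uninjured STR/ort joints summed to 2936 to 6593 CPM at 0-day and 6638 to 19543 CPM at 1-week (5 of 7 called higher), and skeletal muscle markers to 75319.6 to 86437 and 27509 to 52986 CPM (7 of 7 lower). Immediate early genes fell between the same joints from a range of 1172 to 2124 CPM to one of 174 to 273 CPM (7 of 7 called lower) and heat shock genes from a range of 344 to 464 CPM to one of 235 to 306 CPM (3 of 5 lower). Sums of monocyte and macrophage markers (1930 to 2718, then 2952 to 3621 CPM) and of bone markers (1912 to 2664, then 2728 to 3928 CPM) rose without overlap. Their part in the result was not tested. In injured STR/ort joints Osmr rose from 1-day to 1-week by 0.66 ± 0.13 (adjusted p = 0.00051), or by 0.57, under the fold threshold, without injured replicate 1 of 1-week.

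Between STR/ort and MRL/MpJ Osmr was called at each time after injury, and between STR/ort and C57BL/6 at 1-week and 2-weeks. In injured joints STR/ort was above MRL/MpJ by 0.63 ± 0.11 (adjusted p = 1.52e-05) at 1-day, 1.53 ± 0.14 (adjusted p = 1.56e-10) at 1-week and 1.02 ± 0.09 (adjusted p = 3e-10) at 2-weeks. Against C57BL/6 the difference was 0.31 ± 0.11 (adjusted p = 0.0288) at 1-day, under the fold threshold, 1.31 ± 0.13 (adjusted p = 4.49e-09) at 1-week and 0.67 ± 0.09 (adjusted p = 1.88e-06) at 2-weeks. At 1-week the uninjured joints differed too, by 1.71 ± 0.16 (adjusted p = 1.08e-09) and 1.31 ± 0.15 (adjusted p = 2.75e-08), and the interactions were -0.18 ± 0.21 (adjusted p = 0.782) and 0.00 ± 0.18 (adjusted p = 1). In these uninjured joints synovial fibroblast markers summed to 6638 to 19543 CPM in STR/ort against 1614 to 1709.6 in MRL/MpJ and 1198 to 1679 in C57BL/6 (6 and 5 of 7 called higher) and cartilage markers to 4485 to 5845 against 1403 to 2431 and 1033 to 2920.4 CPM (5 of 5 higher in both). Bone markers were higher (5 of 6 in both) and skeletal muscle markers lower (7 and 4 of 7), and the part of these tissues in the uninjured strain differences of Osmr, Il11, Lif and Socs3 at 1-week was not tested. The 1-day difference was under the fold threshold without injured STR/ort replicate 1 (0.58) and with housekeeping scaling (0.45), and so was the 2-weeks difference from C57BL/6 without injured STR/ort replicate 5 (0.57). In uninjured joints at 1-week 5 of the 10 genes passed with more in STR/ort than in MRL/MpJ (13.7% of all genes) and 3 higher than in C57BL/6 (13.1%), whereas at 2-weeks edgeR called 0 of the 10 in any of the 3 uninjured strain comparisons (9 of 30 values had an unadjusted p below 0.05, and DESeq2 called 1). At 1-week Il11 too was higher in uninjured STR/ort joints than in those of MRL/MpJ (1.90 ± 0.50, adjusted p = 0.00288) and of C57BL/6 (1.97 ± 0.47, adjusted p = 0.00108), and with 1 RUVg factor neither was called (adjusted p = 0.367 and 0.189). Of all genes at 2-weeks, 13.8%, 9.78% and 9.83% were called in uninjured joints between STR/ort and MRL/MpJ, STR/ort and C57BL/6, and C57BL/6 and MRL/MpJ.

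**Figure D3:**
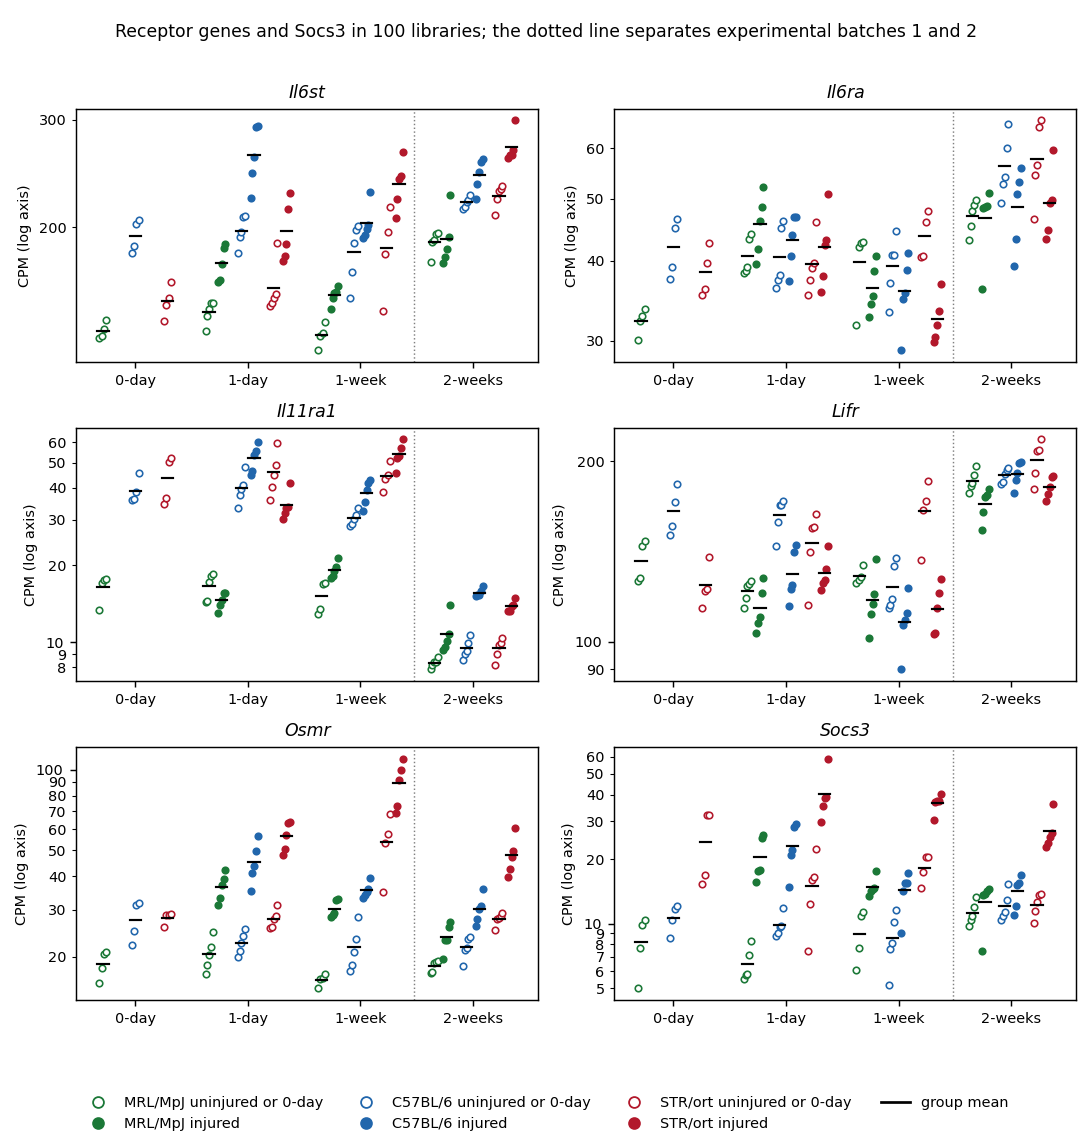
Level of the 5 receptor genes and Socs3 (y axis, CPM on a log axis) in each of the 100 libraries by time (x axis), with symbols as in the plot of the ligands. At 1-day Osmr and Socs3 of injured joints lie above those of uninjured joints of the same strain, Il11ra1 of MRL/MpJ lies below the other strains up to 1-week, and Il6ra stays between 29.0 and 66.3 CPM.

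The shared chain gp130, encoded by Il6st, moved little after injury. Its 9 injury comparisons gave log2 fold changes from 0.01 to 0.41, none past the fold threshold. The largest was that of C57BL/6 at 1-day, 0.41 ± 0.08 (adjusted p = 0.000329), where injured joints had 292, 223, 261, 294 and 246 CPM and uninjured ones 209, 208, 197, 192 and 181 CPM without overlap. Strains differed more. MRL/MpJ injured joints of 1-day had 164, 187, 174, 163 and 185 CPM, below all of C57BL/6 (0.61 ± 0.08, adjusted p = 3.46e-07). In these joints T cell markers (24.7 to 33.0 against 47.3 to 71.2 CPM) and neutrophil markers (10281 to 13167 against 14000 to 18396 CPM) were lower in C57BL/6 without overlap. Sums of the other marker lists overlapped, which does not exclude changes of single markers. The part of these cells in the Il6st difference was not tested. At 1-week injured STR/ort joints had 266, 240.0, 242, 223 and 207 CPM and MRL/MpJ 156, 153, 160.2, 156 and 147 CPM (0.59 ± 0.09, adjusted p = 1.36e-06). Both calls sat near the fold threshold, and each was under it in 3 fits without 1 library: the first without injured MRL/MpJ replicate 4 (0.58) or injured C57BL/6 replicate 1 (0.57) or 4 (0.56), the second without injured MRL/MpJ replicate 5 (0.57) or injured STR/ort replicate 1 (0.55) or 3 (0.58). With housekeeping scaling both were under it too (0.54 and 0.45). With C57BL/6 against MRL/MpJ, 2 of the 10 genes were called higher in injured joints at 1-day (10% of all genes), 1 at 1-week (4.78%) and 1 at 2-weeks (7.31%).

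Il6ra, which binds IL-6, and Lifr, which LIF joins to gp130, were not called in any of the 48 comparisons. For Il6ra the 100 libraries lay between 29.0 and 66.3 CPM. Its most negative change after injury was -0.43 ± 0.10 (adjusted p = 0.00236) in STR/ort at 1-week, with 29.8, 30.4, 31.7, 33.4 and 36.8 CPM in injured and 40.7, 45.9, 40.6 and 47.8 CPM in uninjured joints, which did not overlap. Lifr in the same joints was 103, 103, 114, 127 and 121 and 186, 137, 172 and 166 CPM, also without overlap, a change of -0.54 ± 0.10 (adjusted p = 0.000118) and thus the largest of its 9 injury comparisons. Both had adjusted p below 0.05 and stayed under the 1.5-fold threshold.

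Il11ra1, the alpha chain that binds IL-11, differed between strains, and so did its change with injury at 1-day. At 0-day its level was 17.0, 13.4, 17.6 and 17.6 CPM in MRL/MpJ, 45.4, 35.8, 36.2 and 38.6 CPM in C57BL/6 and 36.6, 34.6, 52.3 and 50.6 CPM in STR/ort. No MRL/MpJ library reached the lowest value of C57BL/6 or STR/ort. C57BL/6 was above MRL/MpJ by 1.30 ± 0.14 (adjusted p = 9.18e-07) and STR/ort by 1.42 ± 0.14 (adjusted p = 2.93e-07). Tissue markers differed in the same 0-day joints. In C57BL/6 against MRL/MpJ 5 of 5 cartilage, 6 of 7 synovial fibroblast and 4 of 6 bone markers were called higher and 7 of 7 skeletal muscle markers lower (32895 to 53128 against 71833 to 87449.7 CPM), and in STR/ort against MRL/MpJ 1, 3 and 1 were higher and 1 muscle and 1 bone marker lower. T cell marker sums were lower in C57BL/6 (30.4 to 35.8 CPM) and STR/ort (16.4 to 21.6 CPM) than in MRL/MpJ (56.6 to 66.1 CPM) without overlap. In STR/ort, sums of neutrophil markers (12817 to 15122 against 15700 to 18826 CPM) and of monocyte and macrophage markers (1930 to 2718 against 2741 to 3030 CPM) were also below MRL/MpJ. The part of all these markers in the Il11ra1 difference was not tested. Il11ra1 was also lower in MRL/MpJ in uninjured and in injured joints at 1-day and 1-week, with log2 fold changes from 0.99 to 1.85 in 8 comparisons, all called in every alternative and without any 1 library. In uninjured joints C57BL/6 against MRL/MpJ had 2 of the 10 genes called higher at 1-day (9% of all genes) and 1 at 1-week (4.53%), Il11ra1 being among them at both times. At 2-weeks all libraries lay between 7.87 and 16.6 CPM, against 12.9 to 61.6 CPM at the earlier times, where batch and time cannot be told apart, and the strain differences were between -0.17 and 0.54 with none called. Reads of Il11ra2 may be counted in or left out of this gene, and the sources used here do not say.

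After injury the change of Il11ra1 at 1-day was not the same in STR/ort and C57BL/6. Injured STR/ort joints had 33.5, 33.7, 31.8, 30.3 and 41.6 CPM against 48.8, 59.4, 36.0, 44.7 and 40.3 in uninjured ones, and injured C57BL/6 joints 60.4, 44.9, 53.6, 55.5 and 46.5 CPM against 48.2, 33.3, 37.6, 41.1 and 39.5. The groups overlapped within each strain, with injured libraries mostly below the uninjured ones in STR/ort and mostly above them in C57BL/6. The single changes, -0.45 ± 0.11 (adjusted p = 0.00733) and 0.39 ± 0.11 (adjusted p = 0.0124), were under the fold threshold, whereas their difference was called (-0.83 ± 0.16, adjusted p = 0.00112) and held in every alternative and without any 1 library. Without the replicate 5 pair it was -0.95 (adjusted p = 0.000188). It was the only interaction of the 10 genes called at 1-day (2.48% of all genes were called lower in it, and in either direction 0.162% and 0.318% in the interactions of STR/ort and of C57BL/6 with MRL/MpJ). In the interaction of STR/ort with C57BL/6 3 of 7 synovial fibroblast markers, 2 of 7 monocyte and macrophage markers and 1 of 7 immediate early genes were called lower, and their part was not tested. In injured joints Il11ra1 of STR/ort was below C57BL/6 (-0.62 ± 0.11, adjusted p = 7.37e-05), near the fold threshold and under it without injured C57BL/6 replicate 1 (-0.57) or injured STR/ort replicate 4 (-0.57) or with 1 RUVg factor (-0.41). From 1-day to 1-week Il11ra1 rose in injured STR/ort joints by 0.67 ± 0.13 (adjusted p = 0.000399), reaching 53.2, 45.7, 56.9, 61.6 and 52.3 CPM. With 1 RUVg factor that rise was 0.57, under the fold threshold.

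At 2-weeks the alpha chain was higher in injured C57BL/6 joints, with 15.3, 15.9, 15.3, 16.6 and 15.1 CPM against 8.52, 9.30, 10.7, 9.91 and 9.05 CPM and no overlap (0.72 ± 0.09, adjusted p = 2e-06). In STR/ort the change was 0.56 ± 0.09 (adjusted p = 2.32e-05) and in MRL/MpJ 0.36 ± 0.09 (adjusted p = 0.0231), both under the fold threshold. None of the interactions of Il11ra1 at 2-weeks was called (adjusted p from 0.697 to 1), so the strains are not shown to differ in this change.

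Socs3, the STAT3-driven inhibitor of gp130, was higher in injured joints in every strain at 1-day and 1-week and in STR/ort at 2-weeks. At 1-day injured joints had 15.6, 25.2, 17.8, 17.5 and 26.0 CPM in MRL/MpJ, 28.3, 14.8, 20.9, 29.2 and 22.1 CPM in C57BL/6 and 38.6, 39.1, 35.3, 29.8 and 59.0 CPM in STR/ort. Uninjured joints had 8.27, 5.74, 5.52, 5.80 and 7.12 CPM in MRL/MpJ, 11.8, 9.75, 9.65, 8.77 and 9.09 CPM in C57BL/6 and 7.46, 16.6, 16.1, 12.3 and 22.4 CPM in STR/ort, without overlap in any strain. The log2 fold change was 1.67 ± 0.23 (adjusted p = 1.42e-05) in MRL/MpJ, 1.25 ± 0.22 (adjusted p = 8.98e-05) in C57BL/6 and 1.41 ± 0.20 (adjusted p = 1.18e-05) in STR/ort, where without both replicate 5 libraries it was 1.44 (adjusted p = 4.6e-06). At 1-week it was 0.76 ± 0.19 (adjusted p = 0.0105), 0.76 ± 0.17 (adjusted p = 0.00279) and 1.00 ± 0.17 (adjusted p = 6.12e-05). The call in MRL/MpJ was lost without uninjured replicate 1 (adjusted p = 0.0785) or 3 (0.058) and with 2 RUVg factors (0.0647).

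Socs3 was still high in injured STR/ort joints at the later times. Injured STR/ort joints had 37.4, 40.3, 37.0, 30.6 and 37.2 CPM at 1-week, so that the change from 1-day was -0.13 ± 0.22 (adjusted p = 0.699). In injured C57BL/6 joints it fell by 0.69 ± 0.17 (adjusted p = 0.00693) to 9.07, 14.2, 15.5, 15.6 and 17.2 CPM, a fall under the fold threshold without injured replicate 4 of 1-day (-0.58) or injured replicate 1 of 1-week (-0.57) or with housekeeping scaling (-0.54), and in MRL/MpJ the value was -0.44 ± 0.16 (adjusted p = 0.0853). At 2-weeks injured STR/ort joints had 25.4, 23.9, 22.7, 26.5 and 36.3 CPM against 12.6, 13.5, 11.5, 13.7 and 10.1 in uninjured ones, with no overlap (1.14 ± 0.15, adjusted p = 8.32e-07). Injured MRL/MpJ joints had 14.4, 14.2, 7.48, 13.5 and 13.7 CPM against 10.4, 13.3, 9.80, 10.9 and 12.0 (0.17 ± 0.15, adjusted p = 1), and C57BL/6 gave 0.23 ± 0.16 (adjusted p = 0.413). The injury change at 2-weeks was larger in STR/ort than in MRL/MpJ by 0.97 ± 0.21 (adjusted p = 0.0256), the only interaction called among the 10 genes at that time (0.433% of all genes were called higher in it, and in either direction 0.0462% and 0% in the interactions of C57BL/6 with STR/ort and MRL/MpJ). It was lost in 6 of 30 fits without 1 library (adjusted p from 0.0533 to 0.0760): without uninjured MRL/MpJ replicate 1, 2 or 5, uninjured STR/ort replicate 3 or 5, or injured STR/ort replicate 5, where it was 0.84. It was also lost with only the groups compared (adjusted p = 0.0559). The interaction against C57BL/6 was 0.91 ± 0.21 (adjusted p = 0.121). At 1-week edgeR called 0 interactions of the 10 genes (5 of 30 values had an unadjusted p below 0.05, and DESeq2 called 0), beside 0.884%, 0.491% and 0% of all genes for STR/ort minus MRL/MpJ, STR/ort minus C57BL/6 and C57BL/6 minus MRL/MpJ.

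**Figure D4:**
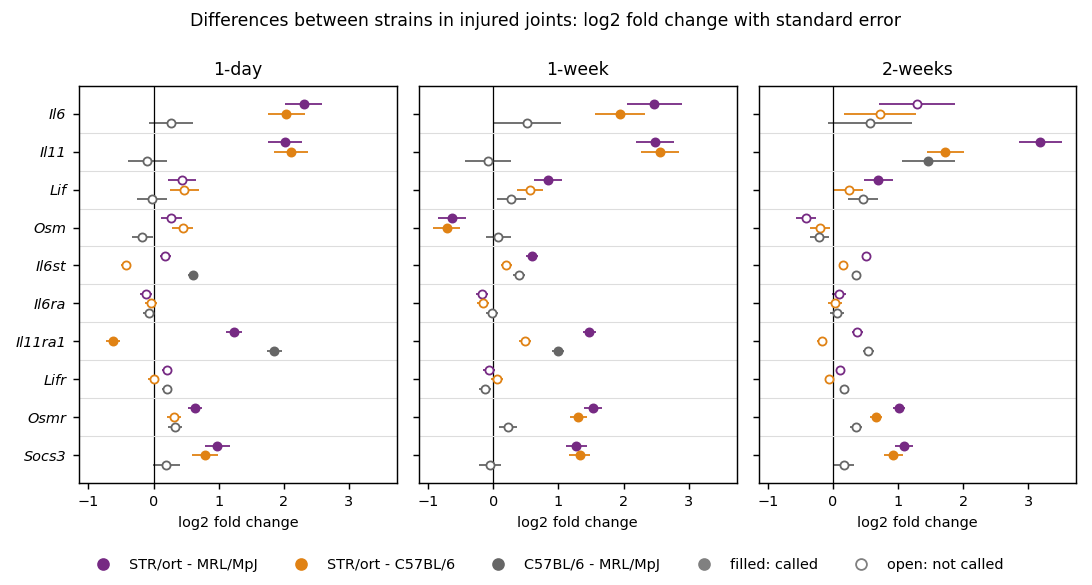
Log2 fold change between strains in injured joints (x axis, with the standard error as a bar) for the 10 genes (y axis) at 3 times (panels: 1-day, 1-week, 2-weeks), with colours for the pair of strains and filled points for calls. Il11 and Socs3 of STR/ort are filled against both other strains in all 3 panels, and Il11ra1 of C57BL/6 against MRL/MpJ in the first 2.

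In injured joints Socs3 of STR/ort was above MRL/MpJ by 0.98 ± 0.20 (adjusted p = 0.000152) at 1-day, 1.28 ± 0.16 (adjusted p = 7.61e-08) at 1-week and 1.09 ± 0.14 (adjusted p = 2.4e-07) at 2-weeks. Above C57BL/6 it was by 0.79 ± 0.20 (adjusted p = 0.00302), 1.33 ± 0.16 (adjusted p = 5.52e-08) and 0.92 ± 0.14 (adjusted p = 1.04e-05). All 6 calls held without any 1 library, and without the replicate 5 pair of STR/ort the 1-day differences were 0.81 (adjusted p = 0.000386) and 0.61 (0.00805). At 1-week the difference from MRL/MpJ was not called with 2 RUVg factors (adjusted p = 0.0731). In injured joints at 1-week and at 2-weeks, STR/ort thus exceeded each other strain in Osmr, Il11 and Socs3 by this test. In uninjured joints the differences of Socs3 were 1.24 ± 0.24 (adjusted p = 6.45e-05) from MRL/MpJ and 0.63 ± 0.22 (adjusted p = 0.0328) from C57BL/6 at 1-day, when 3 and 1 of the 10 genes were called higher (13.1% and 5.73% of all genes). In the same joints synovial fibroblast markers were 7024 to 9816 CPM in STR/ort against 1667 to 2573 in MRL/MpJ and 2063 to 2716 in C57BL/6 (5 and 3 of 7 called higher), and 4 and 5 of 7 immediate early genes were higher. Against MRL/MpJ 5 of 5 cartilage and 5 of 6 bone markers were also called higher and 6 of 7 skeletal muscle and 6 of 6 T cell markers lower, and against C57BL/6 1 cartilage marker was higher and 2 T cell markers lower. Their part in the uninjured strain differences at 1-day was not tested. Without the replicate 5 pair of STR/ort the second was 0.43 (adjusted p = 0.124), and 7 of 30 fits without 1 library lost it (adjusted p from 0.0511 to 0.170), as did housekeeping scaling (0.0866) and only the groups compared (0.0517). At 1-week the differences in uninjured joints were 1.04 ± 0.19 (adjusted p = 6.89e-05), lost with 2 RUVg factors (0.209), and 1.09 ± 0.18 (adjusted p = 1.61e-05). By 2-weeks they were 0.12 and 0.02, and not called.

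Before injury, at 0-day, STR/ort had more Socs3 and Il6 than either of the other strains. Socs3 had 32.2, 32.0, 15.3 and 16.9 CPM in STR/ort, 12.0, 11.7, 10.4 and 8.54 CPM in C57BL/6 and 4.99, 7.67, 9.82 and 10.3 CPM in MRL/MpJ, so that STR/ort overlapped neither of the others, which overlapped each other. The difference was 1.62 ± 0.25 (adjusted p = 5.58e-05) from MRL/MpJ and 1.14 ± 0.22 (adjusted p = 0.000683) from C57BL/6, the second lost with 2 RUVg factors (0.0612). Il6 had 2.62, 1.66, 0.209 and 0.982 CPM in STR/ort and 0.300, 0.814, 0.172 and 0 CPM in MRL/MpJ, which overlapped. In all, 4 of the 10 genes passed with more in STR/ort than in MRL/MpJ (8.34% of all genes), 2 higher than in C57BL/6 (7.82%) and 1 higher in C57BL/6 than in MRL/MpJ (9.64%). Cell type markers differed as well. Against C57BL/6, STR/ort had 6 of 7 skeletal muscle markers called higher (75319.6 to 86437 against 32895 to 53128 CPM) and 3 of 5 cartilage, 3 of 7 monocyte and macrophage and 4 of 6 T cell markers lower, and against MRL/MpJ 3 of 7 synovial fibroblast markers higher (2936 to 6593 against 1339.7 to 1732 CPM) and 4 of 6 T cell markers lower. Their part in the Socs3 and Il6 differences was not tested. In both comparisons 7 of 7 immediate early genes and 5 of 5 heat shock genes were called higher for STR/ort, and STR/ort replicates 1 and 2 had the most immediate early RNA and, with 32.2 and 32.0 CPM, the most Socs3. Without these 2 libraries Socs3 was 1.03 (adjusted p = 0.000763) above MRL/MpJ and 0.55, under the fold threshold, above C57BL/6. For Il6 the values without them were 0.64 (adjusted p = 0.566) and 0.69 (adjusted p = 0.498), neither called. With all libraries Il6 gave 1.91 ± 0.66 (adjusted p = 0.0308) and 1.96 ± 0.60 (adjusted p = 0.0166). Lif was 0.70 ± 0.26 (adjusted p = 0.0445) between STR/ort and MRL/MpJ at 0-day, a call lost in 7 of 12 fits without 1 library (adjusted p from 0.0502 to 0.145), without both of these STR/ort libraries (0.274), with only the groups compared (0.0528), with DESeq2 (0.0583) and with 2 RUVg factors (0.106).

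Single libraries of 0-day also decided the calls of Il6. Without MRL/MpJ replicate 1 the difference of STR/ort from MRL/MpJ was lost (adjusted p = 0.08), as it was without replicate 3 (0.0723) or 4 (0.076) and without STR/ort replicate 1 (0.143) or 2 (0.0571), and without MRL/MpJ replicate 2 it was 2.84. The difference from C57BL/6 was lost without C57BL/6 replicate 2 (0.05) or STR/ort replicate 1 (0.0986) and with 2 RUVg factors (0.738). From 0-day to 1-day Socs3 in uninjured STR/ort joints fell by 0.71 ± 0.25 (adjusted p = 0.0406), beside 7.23% of all genes called lower. Between the same joints immediate early genes fell from a range of 1172 to 2124 CPM to one of 182 to 834 CPM (5 of 7 called lower), heat shock genes from a range of 344 to 464 CPM to one of 160.1 to 199.97 CPM (5 of 5 lower), and skeletal muscle markers from a range of 75319.6 to 86437 CPM to one of 30122 to 52104 CPM (7 of 7 lower), while synovial fibroblast markers went from 2936 to 6593 CPM up to 7024 to 9816 CPM (2 of 7 higher). In each of these 4 lists the ranges did not overlap, nor did those of monocyte and macrophage markers (1930.2 to 2717.7, then 2723.0 to 3326.8 CPM). The part of these genes in the fall of Socs3 was not tested. Without 0-day replicates 1 and 2 Socs3 gave -0.14 (adjusted p = 0.772), and it was not called with RUVg (0.485 and 0.465) or with only the groups compared (0.0864). That fall was also lost without 0-day replicate 1 (0.16) or 2 (0.151) and without uninjured replicate 1 (0.114), 3 (0.0582) or 4 (0.0824) of 1-day. Of the 60 values of uninjured joints against 0-day, this one and the rise of Osmr were the 2 calls. Uninjured MRL/MpJ joints had no call among the 10 beside 0.156% of all genes at 1-day and 0% at 1-week, and C57BL/6 none beside 0.0462% and 5.54% (15 of the 60 values had an unadjusted p below 0.05, and DESeq2 called 5).

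Other genes of the pathway were taken from lists. Among further ligands and receptors of the family, Ebi3, a chain of IL-27 and IL-35, fell by 0.66 ± 0.17 in STR/ort at 1-week (adjusted p = 0.00601). None of the 7 JAK and STAT genes passed both thresholds in an injury comparison, and the list medians lay between -0.14 and 0.04. Stat3 was between 0.01 and 0.46, with its largest value, 0.46 ± 0.08 (adjusted p = 5.84e-04), in MRL/MpJ at 1-day and under the fold threshold.

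Of 12 target genes of STAT3, 6 were called higher after injury in MRL/MpJ, 5 in C57BL/6 and 5 in STR/ort at 1-day (1.53%, 4.26% and 1.61% of all genes), with list medians of 0.58, 0.50 and 0.58. Saa3, an acute-phase protein, gave 3.0 ± 0.85, 3.84 ± 0.55 and 2.44 ± 0.42, Timp1, an inhibitor of matrix metalloproteinases, 2.22 ± 0.22, 2.33 ± 0.20 and 2.35 ± 0.20, and Il4ra, a receptor of IL-4 and IL-13, 1.47 ± 0.16, 1.47 ± 0.15 and 1.61 ± 0.15. At 1-week and at 2-weeks 1 gene of the list was called higher in MRL/MpJ and in C57BL/6, which was Timp1 each time, and 3 in STR/ort, which were Timp1, Il4ra and Bcl3, a nuclear partner of NF-kappaB. Of all genes 2.93%, 4.75% and 5.67% were called higher in these strains at 1-week and 1.14%, 2.88% and 4.34% at 2-weeks. In STR/ort these were 1.46 ± 0.20, 0.93 ± 0.13 and 0.67 ± 0.20 at 1-week and 1.98 ± 0.15, 0.74 ± 0.12 and 0.66 ± 0.15 at 2-weeks. Lcn2, a neutrophil granule protein, fell by 0.64 ± 0.10 in STR/ort at 1-week, where neutrophil markers were lower as given for Osm. The list medians at 1-week and 2-weeks lay between -0.06 and 0.04. Of 11 other inhibitors, Socs1 was called higher in C57BL/6 at 1-day (0.89 ± 0.25), in STR/ort at 1-week (0.86 ± 0.30) and in STR/ort at 2-weeks (0.64 ± 0.21), and Socs2 in STR/ort at 1-week (0.92 ± 0.11).

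Likeness to the members was described by Pearson's r of the 21 group means of log2 CPM, which share libraries and depth. Among genes with a mean of at least 1 CPM, the most alike to Il6 were Ccl7 (r = 0.937), Ptx3 (0.937) and Cxcl5 (0.932). For Il11 they were Clec4n (0.963), Ptx3 (0.948) and Timp1 (0.940), and for Osmr Angptl4 (0.968), Slc41a2 (0.967) and Il13ra1 (0.966). Genes among the most alike to Socs3 were Snai1 (0.927) and Ch25h (0.925). Among the members, Il6 had r = 0.897 with Il11, 0.875 with Socs3, 0.769 with Osmr and -0.342 with Osm.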

How the data were processed

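RNA of 100 mouse knee joints was sequenced, and the deposited table holds raw read counts per gene. The authors made poly(A) libraries, aligned reads to mm10 with TopHat2 2.0.11 and counted RefSeq genes with featureCounts, and the strand setting is not given in the sources used here. The table had 17313 genes, 3 repeated names were dropped, 24 names had been turned into dates, and no library was left out. Groups came from the labels. Counts were tested with the quasi-likelihood test of edgeR 4.0.16 (R 4.3.3, limma 3.58.1) with TMM normalisation and Benjamini-Hochberg adjustment over 17310 genes, in 1 fit per time with 1 mean per group. Contralateral joints against 0-day and injured joints at 1-week against 1-day were fitted per strain within experimental batch 1. A filter of 2 counts in at least 5 libraries removed 0 genes. A call needed an adjusted p below 0.05 and a fold above 1.5. Standard errors are the size of the log2 fold change divided by the root of F. CPM use TMM over all libraries. The log2 CPM behind the correlations use a prior count of 2, and fold changes use the default of edgeR's quasi-likelihood fit.

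The genes, the pathway and marker lists and the tests were chosen with earlier results of these data known. Members were named whatever their values, and of the other lists the members called in an injury comparison were eligible to be named. Some results of the list of further ligands and receptors and of the genes most like a member are not reported here. Replicate numbers pair joints of 1 animal at 2-weeks by the labels, where deviations of paired joints from their group means correlated with r from -0.161 to 0.262 (median 0.139, 15 pairs). At 1-week the 4 pairs of STR/ort correlated with 0.102 to 0.231, but before 2-weeks the labels name no animal and numbers are only shared. The main tests used no pairing at any time. The replicate block, an alternative, used the replicate numbers of every strain and time alike.

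Alternatives were RLE size factors, scaling and RUVg factors from housekeeping genes, filterByExpr, no filter, DESeq2 1.42.0, fits of only the groups compared, a replicate block, and leaving out each library. A setting without 2 STR/ort libraries of 0-day and one without the replicate 5 pair of STR/ort at 1-day were added after seeing the data. The edgeR steps were tested on simulated counts. Total counts were 6182016 to 20986027 per library (median 10582591.5), which sets the counting error of the low ligand genes. Promoters were read from RefSeq GRCm38.p6 for 9 of 10 members (12 windows). Python 3.11.15, pandas 2.3.3 and matplotlib 3.10.9 were used.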

Additional observations from a re-analysis of the deposited data

Results flagged for a closer look

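A library was singled out where its distance from the nearest library of its group, divided by the range of the group, passed Dixon's critical value. Of 210 tests over 21 groups and 10 genes 15 passed, and chance alone passes about 5%. Il6 of injured STR/ort replicate 5 at 2-weeks was 2.38 CPM against 0.160 to 0.803 in the other 4 libraries, and the same library was highest for Il6st (299.6 against 260.2 to 267.5 CPM) and Socs3 (36.3 against 22.7 to 26.5 CPM). Injured MRL/MpJ replicate 4 at 2-weeks was lowest for Osm (3.88 against 5.87 to 6.26 CPM) and Il6ra (36.2 against 48.4 to 51.1 CPM), and its skeletal muscle markers summed to 105820.0 CPM, the most of all libraries.

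The other 10 were single values. At 0-day Il11ra1 of MRL/MpJ replicate 2 was 13.4 CPM against 17.0 to 17.6, and Osmr of STR/ort replicate 2 was 25.8 CPM against 28.6 to 28.8. At 1-day Lif of injured C57BL/6 replicate 4 was 6.14 CPM against 2.35 to 3.26, Osm of uninjured STR/ort replicate 1 was 3.24 CPM against 4.66 to 5.11, and Il6st of uninjured STR/ort replicate 2 was 188.4 CPM against 148.1 to 155.2. At 1-week Osm of uninjured C57BL/6 replicate 5 was 8.36 CPM against 3.68 to 4.65, Il6st of injured C57BL/6 replicate 2 was 228.6 CPM against 191.7 to 201.7, Il6ra of uninjured MRL/MpJ replicate 1 was 31.8 CPM against 42.1 to 42.8, and Socs3 of injured MRL/MpJ replicate 5 was 17.6 CPM against 13.5 to 14.6. At 2-weeks Socs3 of injured MRL/MpJ replicate 3 was 7.48 CPM against 13.5 to 14.4.

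In 2 cases the injury change itself differed between strains by the interaction test of edgeR. For Il11ra1 the change at 1-day was lower in STR/ort than in C57BL/6 by a log2 difference of -0.83 (adjusted p = 0.00112), and for Socs3 the change at 2-weeks was higher in STR/ort than in MRL/MpJ by 0.97 (adjusted p = 0.0256), which was lost with only the groups compared (adjusted p = 0.0559) and in 6 of 30 fits without 1 library.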

How the results depend on the processing

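Of the 480 values 101 were called, of which 70 stayed called under every planned setting other than leaving out a library, 73 without any 1 library and 62 under both kinds of change, while 29 values were newly called in at least 1 setting and 21 without some library. Called values were lost most often with RUVg, 14 with 1 factor and 20 with 2 factors, and then with only the groups compared (9), housekeeping scaling (7), DESeq2 (1) and RLE factors (1), and DESeq2 gave no adjusted p for 10 values. The 14 calls lost with 1 RUVg factor were among the 20 lost with 2, and each lost call is given above with at least 1 setting that ended it. Housekeeping scaling moved the median of all genes by -0.18 for STR/ort minus MRL/MpJ in injured joints at 1-day and by 0.15 for injured C57BL/6 joints at 1-week against 1-day. The replicate block changed 1 call, Il11 of STR/ort minus C57BL/6 injury change at 1-day (1.17, adjusted p = 0.32, to 1.11, adjusted p = 0.0467), where numbers are only shared, so 2 interactions were called at 1-day instead of 1 (1 to 2 without 1 library). Interactions at 2-weeks, 1 in all, were 2 with DESeq2 and with 2 RUVg factors, 0 with only the groups compared and 0 to 2 without 1 library. Strain differences in uninjured joints at 2-weeks, 0 in all, were 1 with DESeq2, with housekeeping scaling and with RLE factors and 0 to 1 without 1 library. Contralateral joints against 0-day, 2 calls, gave 5 with DESeq2, 1 with 1 or 2 RUVg factors, 1 without 0-day replicates 1 and 2 of STR/ort (a setting chosen after seeing the data) and 1 to 4 without 1 library. At 0-day 7 calls became 4 to 9 without 1 library, and in uninjured joints at 1-day 6 became 3 to 7. Osm of STR/ort minus C57BL/6 in uninjured joints at 1-week turned from 0.06 to -0.83 with 1 RUVg factor (adjusted p = 0.0373) and -0.84 with 2 (adjusted p = 0.0458), and the cause was not tested. Low counts limit Il6 and Il11 in uninjured joints.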
